A study of Mus musculus with 30 samples.

Results

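The livers of the 10 mice were compared by the number that ends each array's title: 5 liver arrays ended in 1 and 5 in 2, out of 30 arrays of liver, kidney and brain in the series. All mice were male, carried the Avy allele of the agouti gene opposite a (Avy/a), and were sampled at weaning, on day 22. They came from a sibling-mated colony kept heterozygous by force, in which Avy had arisen in the C3H/HeJ strain, and each coat class (yellow, slightly mottled, mottled, heavily mottled, pseudoagouti) had a mouse with each number. The number was thus balanced over coat, and the comparison was made within the 5 coat-class pairs, as number 2 minus number 1. The labels do not say what the number stands for, and give no litter, batch, collection hour or scan date, so the p-values measure only the spread between these mice. Both groups had the same genotype, sex and age and free access to diet and water, per the labels. Kidney and brain arrays with the same coat class and number were taken to be from the same mouse.

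In mice numbered 2, liver RNA of some genes induced by glucocorticoid hormones was higher (Zbtb16, Cdkn1a, Sesn1, Klf9, by 0.67 to 1.50 on the log2 scale). So was that of some genes of the fasting and FOXO response (Lpin1, Foxo1, Ppargc1a, Insr). The fasting list was mixed, with 13 of 25 measured members positive and 12 negative, and Gabarapl1 called lower. RNA of some fatty acid synthesis enzymes (Acly, Elovl6, Me1, Fasn) and of the iron hormone hepcidin (Hamp) was lower. At their strongest sets Zbtb16, Lpin1, Ppargc1a, Insr, Elovl6, Me1 and Fasn did not keep their call with every pair left out in turn. Most heat shock and endoplasmic reticulum chaperones did not pass the test in either direction. The 3 prime over 5 prime signal ratio of the array's pyruvate carboxylase control also separated the 2 numbers, while those of 3 other control transcripts overlapped. Many of the largest differences were seen at some probe sets of a gene and not at others.

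As background, glucocorticoids from the adrenal gland enter hepatocytes and bind the receptor encoded by Nr3c1, which then acts on target genes. Fasting lowers insulin, which releases the FOXO transcription factors and induces gluconeogenic and fat-burning genes, while insulin and the factors SREBP-1c and SREBP-2 drive the enzymes of fatty acid and cholesterol synthesis. Heat shock chaperones keep cytosolic and mitochondrial proteins folded, and endoplasmic reticulum chaperones serve the secretory proteins of which the liver makes so many.

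Values were the deposited MAS5 signals, an intensity per probe set on a scale set per array. The median signal of a liver array was 115.4 to 135 in number 1 and 105.2 to 144.6 in number 2, so this scale overlapped. The array carries probe sets at both ends of a few transcripts, and cRNA made from shortened RNA gives less signal at the 5 prime end. At the pyruvate carboxylase control (Pc) the 3 prime over 5 prime ratio was 2.42, 2.44, 2.16, 2.07 and 3.14 in the livers numbered 1, in the coat order yellow, slightly mottled, mottled, heavily mottled, then pseudoagouti, which holds for all lists of 5 values. It was 5.13, 7.38, 5.01, 8.40 and 18.2 in those numbered 2. The groups did not overlap, and the ratio was higher in number 2 in 5 of 5 pairs, by 1.69 on the log2 scale (SD of the pairs 0.60). The Gapdh ratio was also higher in 5 of 5 pairs, at 0.707 to 0.754 against 0.748 to 0.888, with overlap. The beta-actin ratio was higher in 4 of 5 pairs, at 1.38 to 1.59 against 1.31 to 2.71. The transferrin receptor ratio was higher in 3 of 5 pairs, at 2.54 to 7 against 1.46 to 5.18, with a mean log2 difference of -0.31. The Pc and Gapdh ratios each had an exact two-sided sign-flip p of 0.0625, the smallest that 5 pairs allow, and 0.344 after adjustment over 11 array measures, so this design cannot reach 0.05. In kidney the Pc ratio was 3.79 to 6.67 against 4.28 to 13.7, and in brain 2.22 to 4.30 against 3.03 to 5.97, with overlap in both.

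**Figure D1:**
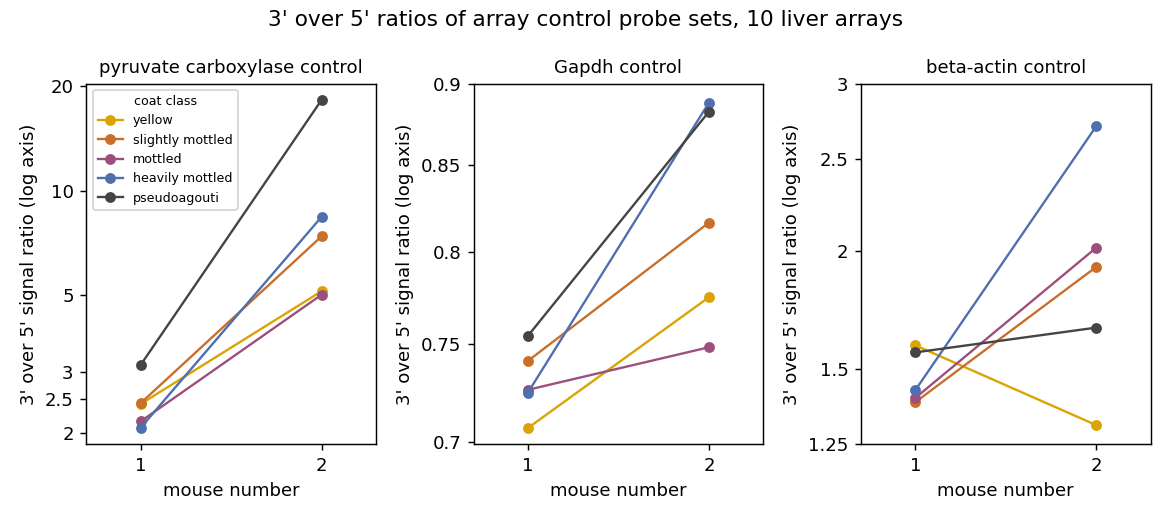
The 3 prime over 5 prime signal ratio of 3 control transcripts (log axes) in each of the 10 liver arrays, by mouse number, with a line per coat class joining the 2 mice of a pair. The pyruvate carboxylase ratio lies at 2.07 to 3.14 in number 1 and 5.01 to 18.2 in number 2, and the Gapdh ratio rises in every pair.

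Of 22519 probe sets tested, 2139 differed between the numbers (9.50%): 1005 were higher in number 2 (4.46%) and 1134 lower (5.04%). The test was limma's moderated test with coat class as a block and a Benjamini-Hochberg adjusted p under 0.05. At the strongest probe set of each gene (the tested set with the highest mean liver signal), 968 of 11684 genes differed (8.28%), with 544 higher (4.66%) and 424 lower (3.63%). The median difference over all tested sets was 0.03 on the log2 scale. Called differences reached 2-fold at 100 higher and 195 lower probe sets. In 2256 probe sets (10.0%) the 5 arrays of the 2 numbers did not overlap. With the slightly mottled, mottled or heavily mottled pair left out, 634, 658 and 872 probe sets were called, and 1819 and 1441 without the yellow and the pseudoagouti pair.

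With the log2 Pc ratio or the log2 Gapdh ratio of the array added as a covariate, limma called 0 probe sets, and 685 and 1590 had an unadjusted p under 0.05, against 5959 without a covariate. The beta-actin ratio as a covariate left 287 called. Because the Pc ratio did not overlap between the groups, number and ratio cannot be told apart in these 10 arrays, and this holds for each gene group that follows.

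Labelled tissue was checked by marker genes. At the strongest set of each gene none of 9 tested hepatocyte markers was called, and their summed signal was 228776 to 263156 in number 1 and 196876 to 297356 in number 2. The summed signals of all 16 marker lists overlapped between the numbers, and none of 7 skeletal muscle markers reached the signal minimum. At strongest sets the marker calls were Pecam1 of endothelial cells, lower, and Lcn2 of neutrophils, higher. At weaker sets Hnf4a, a hepatocyte transcription factor, was called both ways (-1.10 and 0.48) and Col1a2, a fibroblast collagen, higher (0.74). The summed endothelial signal was 13833 to 17653 in number 1 and 12361 to 17752 in number 2. The adrenal list, for example, summed to 730.6 to 1840 and 1351 to 2177, with 4 of 7 genes above the signal minimum and 0 called. The blood list summed to 5503 to 15766 and 4409 to 12746, with 0 of 3 called. The 8 stellate cell and fibroblast markers were all positive in difference, with a median of 0.35, 0 called, and sums of 21148 to 31514 and 29806 to 40761. In whole liver, fewer cells of a type and less RNA per cell cannot be told apart.

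Glucocorticoid-induced genes were the group with the most rises among the lists on stress hormone and chaperones. Of 19 measured members 5 rose (26.3%) and 0 fell, against 4.66% and 3.63% of all genes, and the median difference was 0.43, against 0.03 for all genes. Zbtb16, a zinc finger repressor strongly induced by glucocorticoids, had signals of 604, 549, 745, 621 and 699.8 in number 1 and 1446, 2859, 815, 3358 and 1842 in number 2. All number 2 livers lay above all number 1 livers, although the mottled pair differed little. The log2 difference was 1.50 ± 0.28 (SE, n = 5 pairs; adjusted p = 0.0144), and the other probe sets of Zbtb16 were called too, at 1.05 to 2.49. Without the slightly mottled pair the adjusted p at its strongest set was 0.0578.

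Cdkn1a, which encodes the cell cycle inhibitor p21, was at 209.9, 592, 869.7, 396 and 230.5 in number 1 and 750.1, 2608, 1107, 1034 and 776 in number 2. It was higher in each pair but the groups overlapped, because the mottled mouse numbered 1 was above the yellow and pseudoagouti mice numbered 2. The difference was 1.45 ± 0.22 (adjusted p = 0.00894). Sesn1, a sestrin that restrains mTORC1, was at 632, 411, 529.8, 700.3 and 637 and then at 903, 978, 989, 1214 and 1331. It did not overlap, and rose by 0.89 ± 0.13 (adjusted p = 0.00893). Klf9, a Krüppel-like factor induced by glucocorticoids, rose by 0.67 ± 0.12 (adjusted p = 0.0111), from a range of 4206 to 7618 to 7904 to 11497, and 5 of its 6 probe sets were called higher. At these strongest sets the calls at Cdkn1a, Sesn1 and Klf9 held with each pair left out. The weaker set of Cdkn1a was at 1.13 (adjusted p = 0.0785) and those of Sesn1 at 0.46 and 0.42, and none of these was called.

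Lcn2, lipocalin 2, is both a glucocorticoid target and a secreted acute phase and neutrophil protein. Its signals were 309.6, 256, 130.5, 73.5 and 410.1 in number 1 and 468, 558, 206, 413 and 665 in number 2. The difference was 1.04 ± 0.24 (adjusted p = 0.0284), with overlap between the groups, and the call was lost without the slightly mottled or the mottled pair (highest adjusted p 0.0866). The summed signal of the 8 neutrophil markers, Lcn2 included, was 1058 to 1468 in number 1 and 1275 to 2012 in number 2, and its part in the result was not tested.

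Other well-known glucocorticoid targets did not pass. At their strongest sets Tat was at -0.10, Tsc22d3 at 0.04, Tdo2 at -0.06, Dusp1 at -0.19 and Tgm2 at -0.17. A weaker set of Tgm2 was called lower, at -0.98. Of the 19 members 15 were positive and 4 negative. Fkbp5, an immunophilin that dampens the receptor, was at 1668, 1760.2, 1656, 1379.8 and 2448 in number 1 and 4513, 2727, 992, 3400.3 and 4532 in number 2. It was higher in 4 of 5 pairs and lower in the mottled pair, with a difference of 0.70 ± 0.26 (adjusted p = 0.122). Ddit4 had the same arrangement over pairs (0.77 ± 0.24, adjusted p = 0.0699), and Per1 was higher in 5 of 5 pairs at 1.50 ± 0.45 (adjusted p = 0.0655). In that pair the Gapdh ratio was 0.726 against 0.748, the Pc ratio 2.16 against 5.01 and the beta-actin ratio 1.40 against 2.01, and their part in the result was not tested. Without the slightly mottled pair 3 members of the list were called.

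The receptor gene itself, Nr3c1, rose from 1674 to 2224 in number 1 to 2289.9 to 3179.5 in number 2, without overlap (0.56 ± 0.11, adjusted p = 0.0151). That value is from its strongest set. Of its 5 tested probe sets 2 were called higher, and they spanned -0.78 to 0.92. The call at the strongest set was lost without the slightly mottled or the mottled pair (highest adjusted p 0.0647). It was the only call among 6 measured genes of corticosteroid handling (16.7%, against 8.28% of all genes). Serpina6, the corticosteroid-binding globulin that carries the hormone in blood, was at -0.12 ± 0.11 (adjusted p = 0.554), and Akr1d1, the reductase that inactivates steroids, at 0.44 ± 0.15 (adjusted p = 0.101) at its stronger set, while its weaker set was called lower at -0.52.

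**Figure D2:**
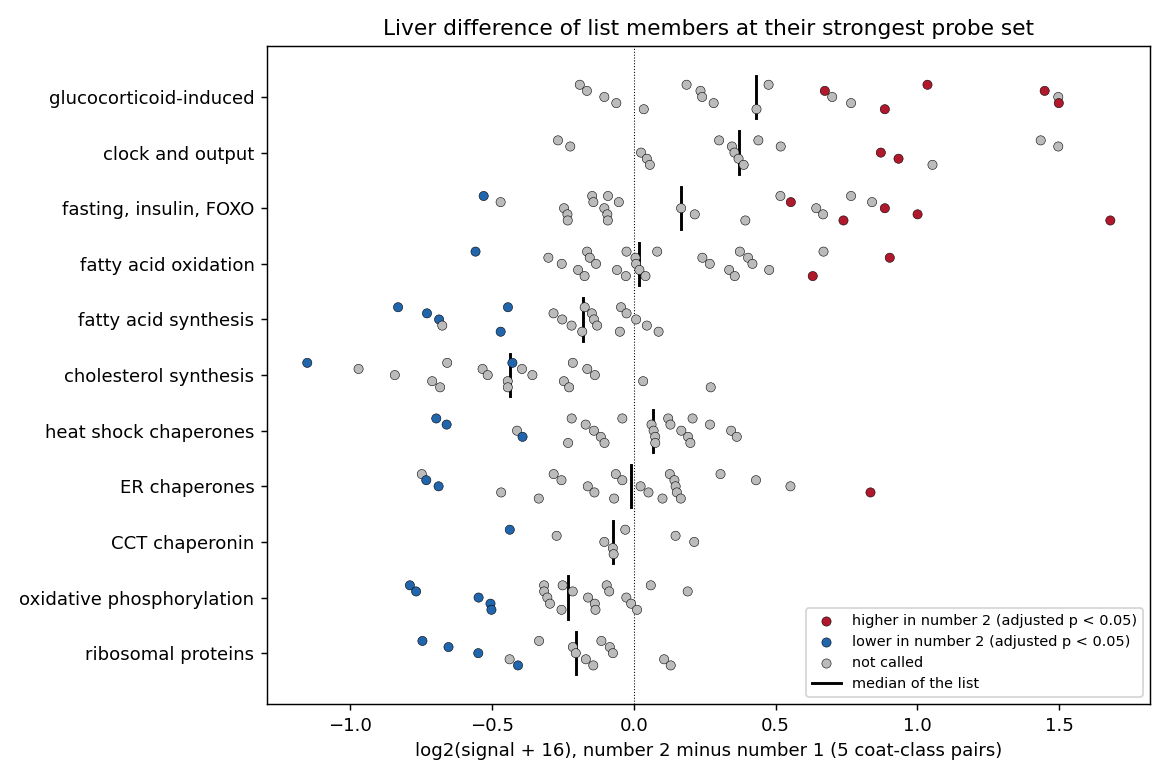
Difference in log2(signal + 16) between numbers 2 and 1 at the strongest probe set of each measured member of 11 gene lists, with adjusted calls in colour and the list median as a bar. The glucocorticoid median lies at 0.43, the fatty acid synthesis median at -0.18 and the heat shock median at 0.07.

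Genes of fasting, insulin and FOXO signalling had 5 rises (20%) and 1 fall (4%) among 25 measured members, against 4.66% and 3.63% of all genes. The median was 0.17. Of the 25 members 14 were among the brightest 20% of tested sets by mean liver signal, of which 6.39% were called higher. Lpin1 encodes lipin 1, a phosphatidate phosphatase that is also a partner of PGC-1 alpha. It was at 6007, 5041, 1408, 945 and 10371 in number 1 and 13522, 15988, 4611, 13224 and 11037 in number 2. It was higher in each pair with overlap between the groups, and the number 1 livers themselves spread over a wide range. The difference was 1.68 ± 0.39 (adjusted p = 0.0277) and 1.90 ± 0.38 at the other probe set. Without the slightly mottled or the mottled pair the adjusted p was above the threshold, at most 0.0855 at the strongest set.

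Foxo1, the insulin-restrained transcription factor of fasting, was at 936, 950.0, 663, 761 and 1494 in number 1 and 1924, 2542, 1359, 1845 and 1835 in number 2. Only the pseudoagouti mouse numbered 1 reached into the number 2 range, and the difference was 1.001 ± 0.16 (adjusted p = 0.0095), called with each pair left out. The weaker sets of Foxo1, at 0.63 and 0.37, were not called. Ppargc1a, the coactivator PGC-1 alpha, rose from 222 to 442 to 546 to 761 without overlap (0.74 ± 0.18, adjusted p = 0.03), and 4 of its 5 probe sets were called. Insr, the insulin receptor, rose by 0.55 ± 0.11 (adjusted p = 0.0189) at its strongest set, while its weaker set was at -0.26 and not called. Both of these calls were lost without the slightly mottled, the mottled or the heavily mottled pair (highest adjusted p 0.0948). Gabarapl1, an autophagy protein that FOXO factors induce, was the fall, at -0.53 ± 0.14 (adjusted p = 0.0425), a call that held with the yellow pair left out and with no other pair left out. G6pc, the glucose-6-phosphatase of gluconeogenesis, was at -0.47 ± 0.17 (adjusted p = 0.109) and lower in 5 of 5 pairs.

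The 5 that rose are regulators, receptors or a phosphatase, and none of the gluconeogenic enzymes Pck1 (0.22), G6pc and Fbp1 (-0.09) was called. The fifth rise was Sesn1, which is also on the glucocorticoid list and is counted in both. Of the 25 members of the fasting list 6 were called in all. The count was 2 without the slightly mottled pair, 3 without the mottled, 3 without the heavily mottled, 6 without the yellow and 8 without the pseudoagouti pair. The pyruvate carboxylase gene is on this list and is also the control whose end ratio separated the numbers.

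Clock genes, which glucocorticoids and feeding time also reach, had 2 rises (11.8%, against 4.66%) and 0 falls among 17 measured members, with 15 positive and a median of 0.37. Hlf, an output transcription factor of the PAR bZIP family, was at 756, 624, 576, 569.8 and 707 in number 1 and 1311, 1163, 1071, 1096 and 1652 in number 2. It did not overlap and rose by 0.93 ± 0.12 (adjusted p = 0.00417), with both probe sets called and the call held with each pair left out. Cry1, a repressor of the clock, was at 0.87 ± 0.24 (adjusted p = 0.0462), a call lost with any pair left out. Collection hour is not in the labels, and its part in the result was not tested.

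**Figure D3:**
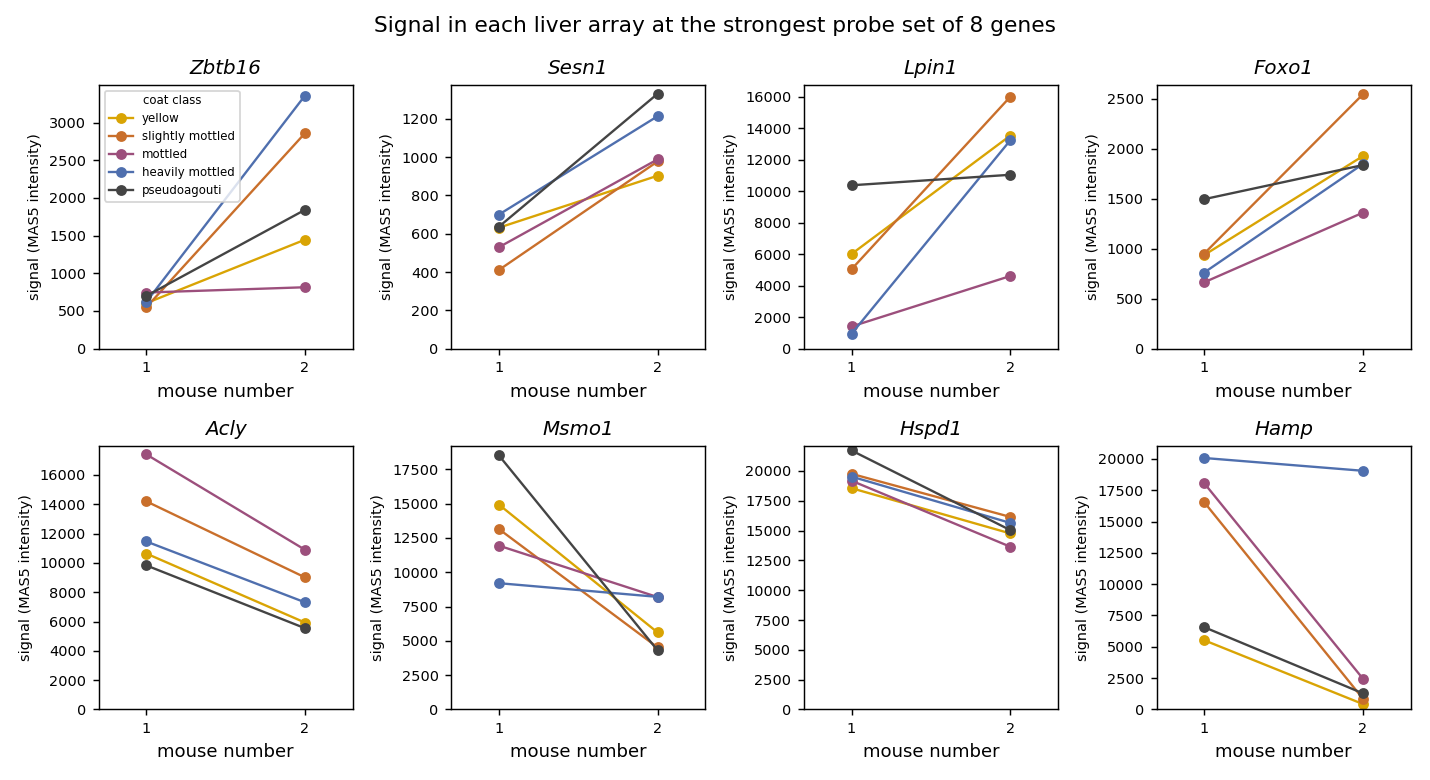
Deposited signal in each of the 10 liver arrays for 8 genes at their strongest probe set, by mouse number, with a line per coat class. Zbtb16, Sesn1, Lpin1 and Foxo1 rise and Acly, Msmo1, Hspd1 and Hamp fall in every pair, with the smallest steps in single pairs such as heavily mottled for Hamp.

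Fatty acid synthesis had 5 falls (25%) and 0 rises among 20 measured members, against 3.63% of all genes lower, with 17 negative and a median of -0.18. Of the 20 members 18 were among the brightest 20% of tested sets by mean liver signal, of which 11.4% were called lower. The promoters of Acly and Fasn, both called lower, are shown from RefSeq. The letters CCAAT are bound by NF-Y, a factor that works beside SREBP proteins, and its part in the falls was not tested. They run 5 prime to 3 prime on the minus strand of GRCm38.p6, from 250 bases before to 50 after the start, with CCAAT or its reverse complement ATTGG in capitals. Acly is at chr11:100527951-100528250 and Fasn at chr11:120824498-120824797.
Acly: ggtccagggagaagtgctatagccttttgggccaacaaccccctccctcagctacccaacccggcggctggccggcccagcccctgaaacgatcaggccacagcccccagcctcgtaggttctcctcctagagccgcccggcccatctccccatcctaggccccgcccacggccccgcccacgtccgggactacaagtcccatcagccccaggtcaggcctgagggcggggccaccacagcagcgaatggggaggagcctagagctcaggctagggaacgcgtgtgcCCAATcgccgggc
Fasn: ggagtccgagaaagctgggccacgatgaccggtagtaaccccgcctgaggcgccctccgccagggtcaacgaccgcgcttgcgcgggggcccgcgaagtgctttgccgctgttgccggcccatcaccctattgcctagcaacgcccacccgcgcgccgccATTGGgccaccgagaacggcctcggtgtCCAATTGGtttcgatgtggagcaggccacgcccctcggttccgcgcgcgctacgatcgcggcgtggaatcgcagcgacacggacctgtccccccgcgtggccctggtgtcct
In Fasn there were 3 matches, of which a forward and a reverse match overlap. The match in Acly lies after the start. Searching both strands of 300-base promoters, CCAAT was found in 14 of 17 fatty acid synthesis genes with a promoter entry (82.4%) and in 16 of 16 cholesterol synthesis genes (100%), against 37.4% of 32851 promoters. The fatty acid synthesis genes with a match included Acly, Fasn and Me1, called lower, and others not called at their strongest sets, such as Srebf1 and Pgd. Elovl6 and Fads2, also called lower, were not among them. A match is a stretch of letters and not a measured site.

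Acly, ATP-citrate lyase, makes the cytosolic acetyl-CoA from which fat is built. Its signals were 10638, 14201, 17404, 11462 and 9829.7 in number 1 and 5927, 9010.3, 10894, 7309 and 5542 in number 2. Each number 2 liver was below its partner, although the groups overlapped. The difference was -0.73 ± 0.10 (adjusted p = 0.00499) and held with each pair left out. Its weakest probe set gave -1.48 ± 0.11 (adjusted p = 0.000881), the smallest adjusted p in liver, and the remaining set gave -0.26, not called. Elovl6, the elongase of long-chain fatty acids, was at 2927, 2882, 3062, 3157 and 3608 and then at 1786, 1362, 2730.4, 2129 and 1896. It did not overlap, and fell by 0.69 ± 0.14 on the log2 scale (adjusted p = 0.0181), a call lost without the slightly mottled pair (adjusted p = 0.0697).

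Me1, the malic enzyme that supplies NADPH, was at -0.83 ± 0.19 (adjusted p = 0.0264). Fasn, fatty acid synthase itself, was at 8267, 8609.9, 9408, 8352 and 9588 in number 1 and 5965, 6231, 8939.8, 5094 and 6207 in number 2. The mottled mouse numbered 2 alone overlapped number 1, and the difference was -0.47 ± 0.12 (adjusted p = 0.0346). Fads2, the delta-6 desaturase, was at -0.44 ± 0.11 (adjusted p = 0.0374). These 3 calls were each lost without the slightly mottled and the pseudoagouti pair, among others. The list had 1 call without the slightly mottled pair, 2 without the pseudoagouti pair, 3 without the yellow or the heavily mottled pair and 5 without the mottled pair.

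Probe sets of a lipid gene often disagreed. Gpam, the acyltransferase that begins triglyceride synthesis, was at -1.96 ± 0.17 (adjusted p = 0.00165) at its weaker set and -0.15 (adjusted p = 0.584) at its stronger. Scd1, the stearoyl-CoA desaturase, spanned -1.58 to -0.04 and Acaca, acetyl-CoA carboxylase, -1.07 to -0.13, and in both the stronger set was not called. Of 41 tested sets of the list 15 were called lower (36.6%, against 5.04% of all sets) and 0 higher.

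Cholesterol synthesis had 2 falls (10%, against 3.63% of all genes), 0 rises and 18 of 20 measured members negative, and a median of -0.44. Of the 20 members 17 were among the brightest 20% of tested sets by mean liver signal, of which 11.4% were called lower. Msmo1, the methylsterol monooxygenase, was at 14936, 13151, 11943, 9205 and 18520.0 in number 1 and 5611, 4521, 8192, 8207 and 4304 in number 2. The groups did not overlap, and the difference was -1.15 ± 0.24 (adjusted p = 0.0192). Ebp, the sterol isomerase, was at 12549 to 15044 against 9268 to 10424 (-0.43 ± 0.10, adjusted p = 0.028). The call at Msmo1 was lost without the slightly mottled pair (adjusted p = 0.0729), and that at Ebp with any pair left out. Mvd, mevalonate decarboxylase, was at -0.97 ± 0.28 (adjusted p = 0.0574) and Fdps, which makes farnesyl diphosphate, at -0.71 ± 0.24 (adjusted p = 0.0966). Called members numbered 0 without the slightly mottled pair, 1 without the yellow, mottled or pseudoagouti pair and 7 without the heavily mottled pair.

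Other lipid lists had 3 calls or 0. Genes of fat oxidation and other PPAR alpha targets numbered 2 rises (7.41%) and 1 fall (3.7%) among 27, against 4.66% and 3.63% of all genes, with a median of 0.02. Angptl4, a secreted lipase inhibitor induced by fasting, rose by 0.63 ± 0.17 (adjusted p = 0.0462). Acaa1a, a peroxisomal thiolase, rose by 0.90 ± 0.19 (adjusted p = 0.0199) at a probe set whose suffix marks possible matches to other transcripts, such as its close copy Acaa1b. Plin2, the coat protein of lipid droplets, fell by 0.56 ± 0.12 (adjusted p = 0.0234). Cpt1a, the gatekeeper of mitochondrial fat burning, was at 0.08 ± 0.12 at its strongest set, while the other 2 sets were called higher, up to 1.08. Ppara, at 0.66 and 0.97, and Pex11a, at 0.88, were likewise called higher at weaker sets and not at their strongest. Of 43 tested sets of the list 7 were called higher (16.3%, against 4.46% of all sets) and 2 lower (4.65%, against 5.04%). Angptl4 and Plin2 kept their call in 1 of 5 omissions of a pair and Acaa1a in 3, and the list had 0 calls without the slightly mottled or the mottled pair. None of 13 bile acid genes and none of 16 apolipoprotein and lipoprotein genes was called at its strongest set. At weaker sets Slc10a1, the bile acid importer, was called lower (-0.40), as was Mttp, which loads lipid onto apolipoprotein B (-0.62 ± 0.15, adjusted p = 0.0309), while the strongest set of Mttp was at 0.34 ± 0.10 (adjusted p = 0.0576).

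Among 24 measured heat shock chaperones 0 rose and 3 fell (12.5%, against 3.63% of all genes), with 13 positive, 11 negative and a median of 0.07. The brightest sets by mean liver signal, as set out for fatty acid synthesis, held 16 of these members. Of all sets that bright, 11.4% were called lower. Fkbp4 is a co-chaperone of HSP90 that helps the glucocorticoid receptor reach the nucleus. It was at 2357, 2909.9, 2558, 2091 and 2893 in number 1 and 1749, 1844, 1545, 1039 and 1798 in number 2. The groups did not overlap, and the difference was -0.70 ± 0.12 (adjusted p = 0.0099), held with each pair left out. Its other probe set was at 0.58 and not called. Hspd1, the mitochondrial chaperonin, was at 18558 to 21719 against 13649 to 16148 (-0.39 ± 0.10, adjusted p = 0.0349), a call lost with any pair left out. Hspa4l, an HSP110-family exchange factor, was at -0.66 ± 0.16 (adjusted p = 0.0323), a call that held with the yellow pair left out and was lost with any other. Without the yellow pair 2 members were called, and without any of the other pairs 1. The inducible Hspa1a and Hspa1b and the exchange factor Hsph1, classic targets of heat shock factor, were not called.

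Fkbp4 also carries the letters of a heat shock element, GAANNTTC, which read alike on both strands. Its RefSeq promoter, at chr6:128438607-128438906 on the minus strand of GRCm38.p6, is shown with the match in capitals because it is a called gene of the list. Lcn2, at chr2:32387690-32387989 on the minus strand, is shown for the list of glucocorticoid targets, with a match to ACANNNTGT, the core spacing of a glucocorticoid element, in capitals. It was the only called member of that list found with this match. The others with a match, Mt1, Sgk1 and Tdo2, were not called at their strongest sets.
Fkbp4: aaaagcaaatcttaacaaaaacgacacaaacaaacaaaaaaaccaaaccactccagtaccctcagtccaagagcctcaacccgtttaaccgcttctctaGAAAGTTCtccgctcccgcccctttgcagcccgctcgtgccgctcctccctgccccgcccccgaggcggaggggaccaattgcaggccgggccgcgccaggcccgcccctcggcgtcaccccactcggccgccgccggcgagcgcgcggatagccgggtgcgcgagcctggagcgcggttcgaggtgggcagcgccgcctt
Lcn2: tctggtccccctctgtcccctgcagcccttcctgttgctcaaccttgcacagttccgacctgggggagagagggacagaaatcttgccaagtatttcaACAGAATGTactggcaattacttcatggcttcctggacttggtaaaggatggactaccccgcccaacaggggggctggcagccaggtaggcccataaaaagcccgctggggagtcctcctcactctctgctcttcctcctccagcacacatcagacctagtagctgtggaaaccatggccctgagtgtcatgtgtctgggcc
GAANNTTC was found in 11 of 19 heat shock genes with an entry (57.9%), against 7.86% of all promoters, and ACANNNTGT in 4 of 16 glucocorticoid-induced genes (25%), against 6.85%.

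Endoplasmic reticulum chaperones had 1 rise (4.17%, against 4.66% of all genes) and 2 falls (8.33%, against 3.63%) among 24, with a median of -0.01. Of the endoplasmic reticulum members 19 were among the same brightest sets, of which 6.39% were called higher and 11.4% lower. Syvn1, the ubiquitin ligase of protein degradation at this membrane, rose from 999 to 1367 to 1650.5 to 3062 (0.83 ± 0.14, adjusted p = 0.00999). The disulfide isomerases Pdia6 and Pdia3 fell by 0.73 ± 0.11 and 0.69 ± 0.14 on the log2 scale (adjusted p = 0.00907 and 0.017), both without overlap. Syvn1 and Pdia6 held with each pair left out, and Pdia3 was lost without the mottled or the heavily mottled pair (highest adjusted p 0.0596). Each of these genes had a second tested probe set that was not called. Of the 8 subunits of the CCT chaperonin, which folds actin and tubulin, 0 rose and 1 fell (12.5%, against 3.63% of all genes). All 8 were among those brightest sets. The fall was Cct6a (-0.44 ± 0.11, adjusted p = 0.034). Its call was lost without any pair but the yellow.

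Among 20 acute phase genes 2 rose and 1 fell (15% called, against 8.28% of all genes). Of the 20 members 16 were among the brightest 20% of tested sets, of which 6.39% were called higher and 11.4% lower. The fall was at Hamp, which encodes hepcidin, which blocks iron export. Its signals were 5525, 16546, 18064, 20072 and 6567 in number 1 and 430.4, 862, 2458, 19051 and 1286 in number 2. The livers numbered 2 were low except the heavily mottled mouse, which stayed within the number 1 range. The difference was -2.63 ± 0.46 (adjusted p = 0.0114), called with each pair left out, and the other probe set gave -2.52. Mouse Hamp has a close copy, Hamp2, that these probe sets may share. Of the other acute phase genes, Saa4, a constitutive serum amyloid, rose by 0.48 ± 0.13 (adjusted p = 0.0437), a call lost with any pair left out, and Saa2, an inducible one, was at -0.55 ± 0.18 (adjusted p = 0.0785).

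Growth hormone targets had 1 rise and 2 falls among 14 (21.4% called, against 8.28%), with a median of -0.32. Igf1, the liver-made growth factor, fell from 19498 to 24750.1 to 13832 to 20207 (-0.53 ± 0.11, adjusted p = 0.0219) at its strongest set, while its other 3 sets, at -0.21 to -0.03, were not called. Hsd3b5, a male-biased steroid dehydrogenase, was at 1390.0, 1430.5, 4978, 14352 and 2619 in number 1 and 926, 808, 959, 972 and 1672 in number 2. It spread widely in number 1 and little in number 2 (-1.65 ± 0.42, adjusted p = 0.0368). Socs2, the feedback inhibitor of the growth hormone receptor, rose by 0.92 ± 0.21 (adjusted p = 0.0257). All 3 calls were lost without the mottled or the heavily mottled pair, among others.

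Immediate early genes, which answer handling within minutes, had 2 rises and 1 fall among 15 (20% called, against 8.28% of all genes). The rises were Socs3 (0.94 ± 0.19, adjusted p = 0.0168) and Egr1 (0.72 ± 0.18, adjusted p = 0.0329), and the fall was Jun (-1.05 ± 0.23, adjusted p = 0.0231). The other set of Jun was at 0.15 and not called. All 3 were lost without the slightly mottled pair, among others. Drug metabolism genes had 1 rise among 17 (5.88%, against 4.66% of all genes). It was Cyp2b13 (1.32 ± 0.30, adjusted p = 0.0267), a cytochrome P450 with close copies, a call lost without the yellow, the mottled or the heavily mottled pair.

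Oxidative phosphorylation subunits had 5 falls (22.7%) and 0 rises among 22, with 19 negative and a median of -0.23. All 22 were among the brightest 20% of tested sets by mean liver signal, of which 11.4% were called lower. Ndufa4, a respiratory chain subunit, fell from 14270.0 to 17434 to 8560.3 to 11691 without overlap (-0.77 ± 0.12, adjusted p = 0.0095). Cytosolic ribosomal proteins had 4 falls (26.7%) and 0 rises among 15 at strongest sets, and 13 of the 15 were among those brightest sets. Rps9 was called both ways, at -0.75 ± 0.12 (adjusted p = 0.00955) at its strongest set and 0.53 ± 0.14 (adjusted p = 0.0456) at the next. With each pair left out in turn, the calls that held throughout were Ndufa4 and Ndufb5 of the first list and Rps9 of the second. In kidney the medians of the same lists were -0.51 and -0.49, and in brain -0.26 and -0.24. Over all genes 4.66% were called higher and 3.63% lower. Proteasome subunits had 2 falls among 18 (11.1%), antioxidant NRF2 targets 2 among 14 (14.3%), and urea cycle genes 0 calls among 15. Of these, 17 proteasome subunits and 10 NRF2 targets were among the brightest sets. Splicing factors had 1 rise (3.85%) and 2 falls (7.69%) among 26, of which 18 were among the brightest sets. Interferon-stimulated genes had 1 fall among 11 (9.09%), Bst2 at -0.82 ± 0.15 (adjusted p = 0.0126). Cell cycle genes had 1 fall among 18 (5.56%), Pcna at -0.44 ± 0.12 (adjusted p = 0.0465). Fetal liver genes had 0 calls among 8, and the cold-inducible Cirbp was at -0.49 ± 0.26 (adjusted p = 0.254). Bst2 lost its call without the mottled pair (adjusted p = 0.0502) and Pcna with any pair left out.

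Among genes outside the lists, the smallest p-values for a rise were at Tob2, an antiproliferative protein (1.33 ± 0.14, adjusted p = 0.00271), and F5, coagulation factor V made by hepatocytes. F5 was at 5728, 5462, 6047, 6217 and 5738 in number 1 and 10305, 12355, 10818, 11997 and 12032 in number 2. The 2 groups lay well apart and each was narrow (0.97 ± 0.10, adjusted p = 0.00271). Its other probe set was at 0.10. The value for Tob2 is from a weaker set. The strongest set of Tob2 was called too, at 1.24, and its remaining sets, at -0.24 to 0.50, were not. Rgs16, a G-protein regulator in periportal hepatocytes that fasting induces, was higher in 5 of 5 pairs (1.66 ± 0.28, adjusted p = 0.0102), with overlap between the groups. The weaker sets of Rgs16, at 1.58 and 0.63, were not called. Fam107a, a stress- and glucocorticoid-responsive actin-binding protein, was at 94.9, 88.5, 26.2, 8.3 and 205 in number 1 and 439.7, 673, 162, 527 and 429.9 in number 2 (2.47 ± 0.40, adjusted p = 0.0099). Its mean in number 1, 84.6, was under the signal minimum. The calls of these 4 genes, at the first set given for each, held with each pair left out.

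The leading falls were mostly at weaker probe sets. Of the 10 genes with the smallest p for a fall 8 were called at a weaker set, and of the 10 largest falls 9, while for rises the counts were 4 and 5. Ywhag, a 14-3-3 adaptor, had the most negative fitted value: its weakest set went from 277, 271, 245, 319 and 231 to 13, 13.3, 22.4, 18.3 and 12.8 (-3.16 ± 0.28, adjusted p = 0.00177). All number 2 livers were at 22.4 or below, near the added offset of 16, and the fitted difference was -4.015 with an offset of 1 and -2.05 with an offset of 64. At its strongest set Ywhag was called the other way, at 0.52 (adjusted p = 0.0144). Mapk6, an atypical MAP kinase, was at -2.24 ± 0.26 (adjusted p = 0.00353) at a weaker set and 0.21 (adjusted p = 0.409) at its strongest. Rtn4, the membrane-shaping reticulon, was at -2.01 ± 0.26 (adjusted p = 0.00461) and 0.06 (adjusted p = 0.797). Sdc1, the heparan sulfate proteoglycan syndecan 1, was at -1.73 ± 0.14 (adjusted p = 0.00106) and -0.02 (adjusted p = 0.955).

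**Figure D4:**
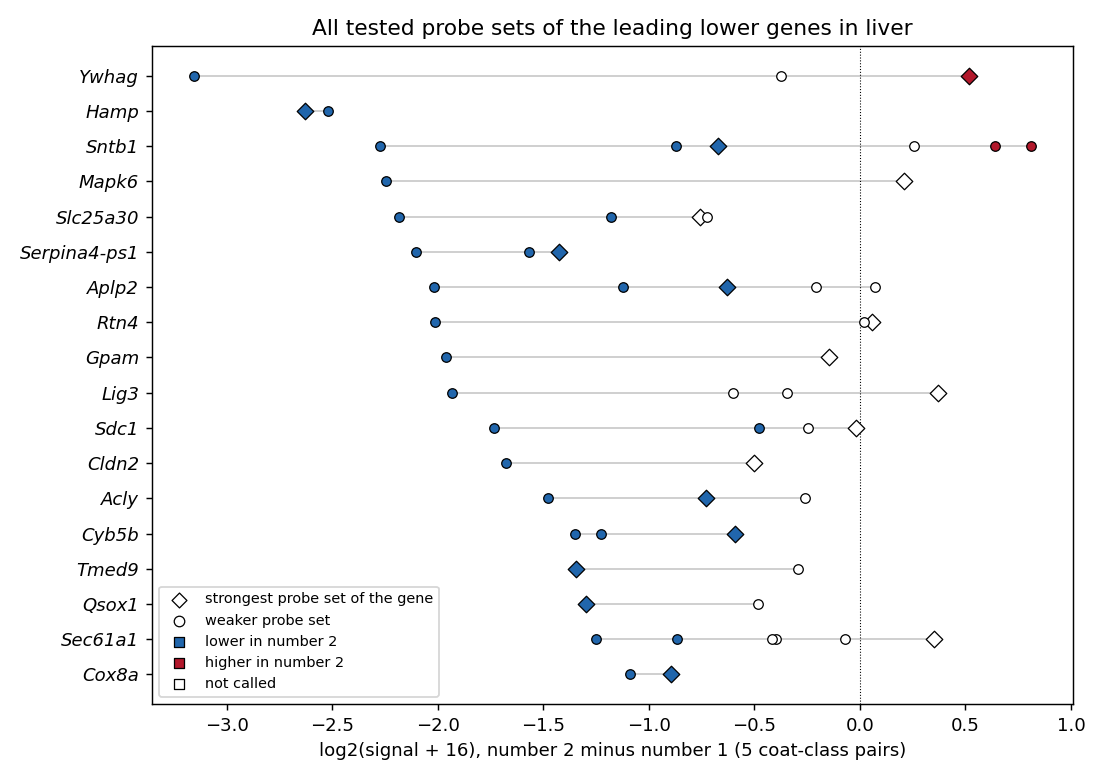
Difference in log2(signal + 16) between numbers 2 and 1 at every tested probe set of the 18 genes that lead the falls in liver, with diamonds for the strongest set of a gene, circles for weaker sets and calls in colour. Ywhag runs from -3.16 to 0.52 while the 2 sets of Hamp lie at -2.63 and -2.52.

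Sets that are the strongest of several for their gene were called higher in 7.29% and lower in 4.06%, the weaker sets of the same genes in 4.52% and 7.56%, and a gene's only set in 2.77% and 3.32%. Sets with the suffix _a_at, which covers several transcripts of a gene, were called lower in 10.5% and higher in 4.08%. Those with _x_at, which can match other genes, were called lower in 3.14% and higher in 8.57%, and those with _s_at in 6.16% and 6.23%. Of 4871 genes with several tested sets, 1260 had a call. All sets were called the same way in 47 of these (19 up and 28 down), 1168 had calls in a single direction beside sets with none, and 45 had calls in both directions. Zbtb16, Lpin1 and Hlf were among the 19 and Hamp, Cox8a (a cytochrome c oxidase subunit), Cyb5b (a mitochondrial cytochrome b5) and Serpina4-ps1 (a serpin pseudogene with close copies) among the 28. Where a probe set lies along its transcript was not analysed here.

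Of the 2139 sets called in liver, 1761 (82.3%) had the same sign of difference in kidney and 1538 (71.9%) in brain. Over all 22519 tested sets the shares were 63% and 56.6%. The glucocorticoid list had a median difference of 0.59 in kidney and 0.30 in brain beside 0.43 in liver. Zbtb16 was at 2.90 ± 1.70 in kidney and 0.84 ± 0.69 in brain (mean ± SD of 5 pair differences), and Fkbp5 at 1.14 ± 0.94 and 0.89 ± 0.40. Klf9, by contrast, was at -0.29 ± 0.32 and -0.18 ± 0.62. Fatty acid synthesis had medians of 0.07 and -0.11, and the fasting list 0.28 and 0.12.

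**Figure D5:**
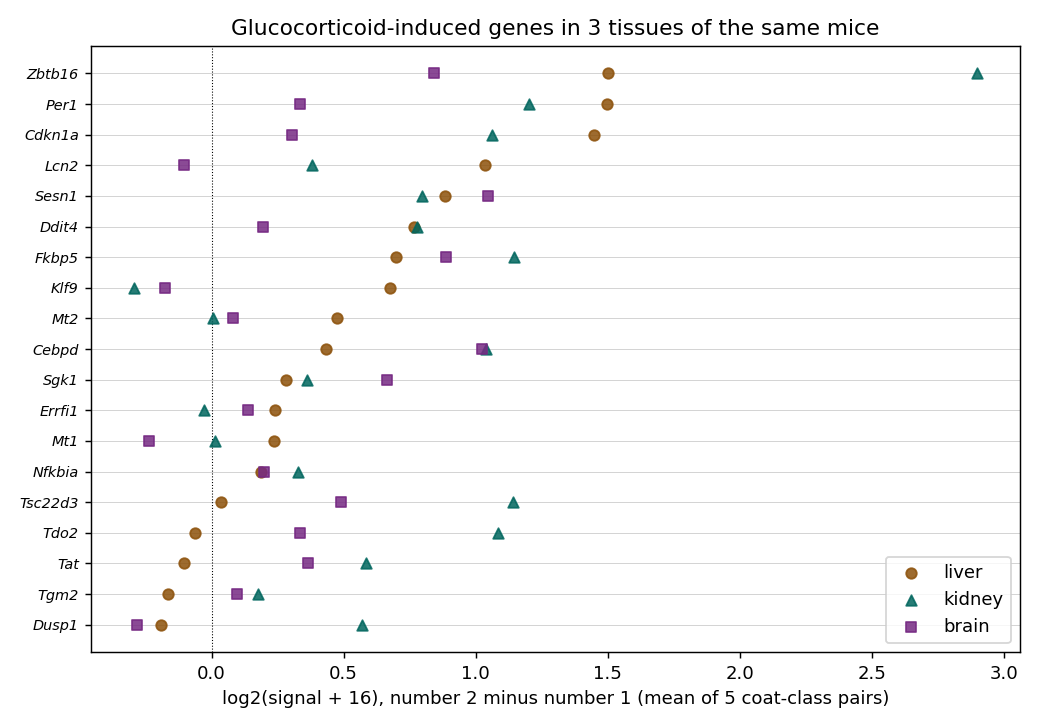
Mean difference in log2(signal + 16) between numbers 2 and 1 over the 5 coat-class pairs for the 19 glucocorticoid-induced genes in liver, kidney and brain of the same mice. Zbtb16 reaches 2.90 in kidney beside 1.50 in liver, while Klf9 lies above 0 in liver and below 0 in the other tissues.

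Of the called probe sets that the naming rule chose, 6 higher and 7 lower had a mean signal under 125.28 in the group where they were lower, and so passed the signal minimum through the other group. Ywhag, Mapk6, Epha1, Fam107a and the second set of Zbtb16 were among them.

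Whether the liver difference itself differed from the other tissues was tested on liver minus the mean of kidney and brain of each mouse. A single probe set of 22519 was called (0.00444%), and 3601 had an unadjusted p under 0.05. It belongs to Epha1, an ephrin receptor of epithelial cells, whose liver signal was 247, 305, 221, 229 and 226 in number 1 and 154, 52.6, 39.3, 10.7 and 88 in number 2. The means were 245.7 and 69.0, so this set passed the signal minimum of 125.28 through number 1. The liver difference was -1.87 ± 0.35 (adjusted p = 0.0138), a call lost without the slightly mottled pair (adjusted p = 0.0557). Kidney was at 0.67 ± 1.21 and brain at 1.28 ± 1.63, and the tested contrast was -2.85 (adjusted p = 0.011). That contrast was called without the heavily mottled pair and not without any other. For the stress, lipid and fasting genes named here the contrast did not pass, for example Klf9 at 0.91 (adjusted p = 0.121), Elovl6 at -0.71 (adjusted p = 0.178) and Lpin1 at 1.38 (adjusted p = 0.245), which does not show that the tissues responded alike.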

How the data were processed

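RNA of liver, kidney and brain was measured on 30 Affymetrix 430 2.0 arrays. Values are MAS5 intensity signals deposited by the authors, per the submitters' processing notes; the MAS5 version is not given in the sources used here. Each array's mean after a 2% trim was near 500. Replicates were not pooled.

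For the 10 liver arrays, log2(signal + 16) was fitted with limma 3.58.1 (R 4.3.3) with coat class as a block and number as the effect (4 residual degrees of freedom, trended prior). The 22519 probe sets with a mean liver signal of at least 125.28 (the median) were tested; 64 array controls were left out. Of 45101 probe sets, 34945 had 1 symbol, 932 several and 9160 none in the platform annotation, and only the first were named. Calls are Benjamini-Hochberg adjusted p under 0.05 over all tested sets. Tissues were compared on liver minus the mean of kidney and brain per mouse. Tables and list counts were made with Python 3.11.15 and pandas 2.3.3.

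The rule named the 10 smallest p and 10 largest differences per direction, up to 5 called members of each list, 3 further members of the glucocorticoid, chaperone, lipid and fasting lists, and the 5 smallest p per direction in the tissue contrast. Any further gene named was picked with its values in view. The members and lists were chosen with earlier results of these data known. List genes without a probe set of 1 symbol were not analysed here. Promoters are RefSeq's, GRCm38.p6. On simulated data of 22519 probe sets, the liver test recovered 14% of 100 sets changed 1.5-fold and 73% of 100 changed 2-fold. There were 3 false calls. The simulated noise was independent between probe sets, and far fewer sets were changed than the 2139 called here. Recovery and false calls in the real arrays may therefore differ. Alternatives were other offsets, filters, scalings, covariates, probe set choices and leaving out arrays or pairs.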

Additional observations from a re-analysis of the deposited data

Results flagged for a closer look

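Among 292 groups of 5 liver arrays looked at, 14 had a mouse that stood apart from the other 4 by Dixon's ratio, about the 1 in 20 that chance gives. In number 1 these were Ebp in the mottled mouse at 15040 (others up to 13030), Hspe1 in the pseudoagouti mouse at 15070 (others up to 13560), Foxq1 in the yellow mouse at 477.4 (others up to 135.3), Serpina4-ps1 in the heavily mottled mouse at 2581 (others up to 1311) and Wbp2nl in the mottled mouse at 224 (others up to 65.4). Low mice of number 1 were the slightly mottled one for Abcb11 at 9495 (others from 11920) and the heavily mottled one for Hsp90b1 at 10010 (others from 12980).

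In number 2 the pseudoagouti mouse was high for Atox1 at 5754 (others up to 4429) and Hsd3b5 at 1672 (others up to 972). It was low for 1810014B01Rik at 370.1 (others from 777.8) and Klf15 at 1970 (others from 2791). Its Pc ratio of 18.2 was also the highest, and the part of that ratio in these values was not tested. The slightly mottled mouse was low for Srxn1 at 345.7 (others from 529.3) and Tspan12 at 4511 (others from 5208), and the heavily mottled mouse for Nfia at 729.9 (others from 973.2).

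Between tissues, the number difference at 1 probe set of Epha1 was -2.85 in liver minus kidney and brain (limma adjusted p = 0.011). That set passed the signal minimum through number 1.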

How the results depend on the processing

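The count of 2139 called probe sets was 1307 with no signal filter, 1234 over probe sets without an a, s or x suffix, 1011 with eBayes without trend, 938 at the strongest set per gene, 868 with the median signal as a covariate, 287 with the beta-actin ratio and 0 with the Gapdh or the pyruvate carboxylase ratio as a covariate. Leaving out a pair gave 634 to 1819, and a single array, with no coat block, 1226 to 2248. The single call of liver against kidney and brain became 2 with offset 1, 34 with offset 64, 154 without the coat block and 0 with no filter, with kidney only or with brain only, and 0 to 1 with a pair left out.

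Called members numbered 5 for glucocorticoid-induced genes, 3 for heat shock chaperones, 3 for endoplasmic reticulum chaperones, 2 for cholesterol synthesis, 5 for fatty acid synthesis, 3 for fatty acid oxidation and 6 for the fasting response. All 7 lists had 0 with the Gapdh or the pyruvate carboxylase ratio as a covariate. With the beta-actin ratio, glucocorticoid-induced genes had 1, heat shock chaperones 0, cholesterol synthesis 8, fatty acid synthesis 1, fatty acid oxidation 0 and the fasting response 0. With no filter, heat shock chaperones had 1, cholesterol synthesis 1, fatty acid synthesis 2, fatty acid oxidation 1 and the fasting response 3. With the median signal as a covariate these were 1, 1, 2, 0 and 2, and with eBayes without trend 1, 0, 1, 0 and 2. Without suffixed sets, glucocorticoid-induced genes had 2, heat shock chaperones 1, cholesterol synthesis 1, fatty acid oxidation 1 and the fasting response 2. At the weakest tested set of each gene, glucocorticoid-induced genes had 3, endoplasmic reticulum chaperones 1, cholesterol synthesis 6, fatty acid oxidation 5 and the fasting response 2. Quantile normalisation gave endoplasmic reticulum chaperones 5, fatty acid synthesis 2 and cholesterol synthesis 1. Coat step as a covariate gave fatty acid synthesis 3. The 75th percentile filter gave cholesterol synthesis 4 and fatty acid oxidation 5, and the highest signal as a covariate 6 and 5. Leaving out a pair or an array gave 3 to 6 for glucocorticoid-induced genes, 1 to 4 for heat shock chaperones, 2 to 4 for endoplasmic reticulum chaperones, 0 to 8 for cholesterol synthesis, 1 to 5 for fatty acid synthesis, 0 to 4 for fatty acid oxidation and 2 to 8 for the fasting response.

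With the pyruvate carboxylase ratio as a covariate the sign turned at Fasn (0.0039), Me1 (0.11) and Lig3 (1.09), and at no other called probe set named here under the alternatives run; the cause was not tested. The pyruvate carboxylase and beta-actin ratios, the strongest set per gene and the weakest set were chosen after seeing the data. With 5 pairs and independent noise the simulated 1.5-fold changes were recovered in 14% of cases, so genes not called may differ by that much.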
